A study of Mus musculus with 93 samples.

Results

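Granulosa cells from ovaries of 7 week old mice were compared between animals labelled as estrogen receptor beta knockout, with Esr2 as the targeted gene, and wild type. The members were chosen by design, as the 5 knockout and 5 wild type libraries of that age and cell type, 10 of 93 samples in the series, and all 18613 genes of their count table were considered. The other samples are granulosa cells at 4 weeks (7 libraries of each genotype) and 6 months (6 knockout and 12 wild type), used here for comparison, and oocytes, which were not analysed here. Smart-seq2 was used to make the libraries from total RNA; it copies whole transcripts from few cells and keeps no strand information, so reads from a gene and an antisense or overlapping partner cannot be told apart. The labels give genotype, age, tissue and cell type; strain, allele, treatment, number of animals per library, cell number and the stage of the estrous cycle are not given in the sources used here. Nothing states that the libraries of a group came from separate animals, so p-values measure the spread between these libraries, which may be partly technical. Libraries are called WT 1 to WT 5 and KO 1 to KO 5 by the sample numbers in the labels.

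Estrogen receptor beta is a ligand-activated transcription factor and the main estrogen receptor of granulosa cells, which line the follicle and nourish the oocyte. Follicle-stimulating hormone drives these cells to proliferate, to convert androgen to estrogen with aromatase and to acquire the luteinizing hormone receptor, which then carries the signal to ovulate and to form a corpus luteum. Granulosa cells also build the basal lamina and the focimatrix of the follicle from type IV collagen, laminin and nidogen. Mice without Esr2 are known for few ovulations and small litters.

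Of 18613 genes, 12002 had enough counts to be tested, and 96 of them (0.8%) differed between genotypes at an adjusted p under 0.05 (edgeR, quasi-likelihood F test, Benjamini-Hochberg), the rule for "called" used throughout. In the knockout 54 genes were higher (0.45% of those tested) and 42 lower (0.35%). The called genes changed by at least 2-fold in every case, and 9 of them by at least 8-fold. All 5 knockout libraries lay above all 5 wild type libraries in 53 of the 54 higher genes, against 2.41% of all genes tested, and below them in 38 of the 42 lower genes, against 2.4%. At an unadjusted p under 0.05 there were 2227 genes (18.6%), and another 212 genes had an adjusted p from 0.05 to 0.1, so the 96 genes are the upper end of a graded distribution. The median log2 fold change over all tested genes was 0.01, and 50.9% of them were positive.

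**Figure D1:**
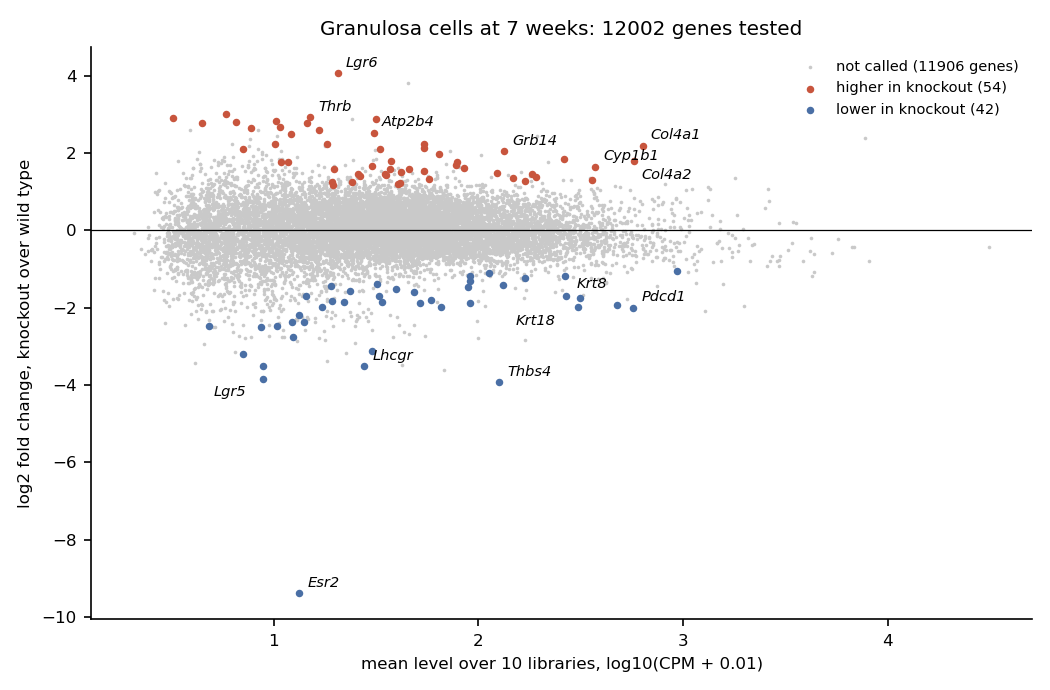
Log2 fold change of knockout over wild type (vertical axis) against the mean level over the 10 libraries (horizontal axis, log10 of counts per 1000000, CPM, plus 0.01) for the 12002 genes tested. Red points are the 54 genes called higher, blue points the 42 called lower and grey points the rest; Esr2 stands lowest at -9.38, and Lgr6 is the highest called gene at 4.07.

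Depth and composition differed between the libraries. Wild type libraries held 702731 to 5158828 counts and knockout libraries 714209 to 6377094, with WT 1, KO 1 and KO 2 the 3 smallest. On the levels of 8139 genes KO 4 and KO 5 correlated more closely with the wild type libraries than with their own group (medians 0.887 against 0.819 and 0.886 against 0.850), and WT 5 as closely with either. Gene length also tracked genotype: the rank correlation of a gene's deviation with its exon length was -0.335 to -0.00949 in wild type and 0.00253 to 0.263 in the knockout, without overlap. After that trend was removed 107 genes were called, 78 of the 96 among them. Calls lost in that fit are not listed by gene below, except for Mmp16. The count of called genes was 41 without WT 2, 38 without WT 3, 36 without WT 4, 51 without KO 1, 45 without KO 3 and 43 without KO 5. It rose to 209 without KO 4 and was 42 without the shallow pair WT 1 and KO 1, with 40 of the 96 among them. Without this pair the calls on Col4a2, Krt8, Nid2, Emb, Pik3c2g, Olfr810, Cyp1b1, Adamts9, Mmp16, Col6a3, Itgb3, Ncam1 and Aldh1a1 were lost. So were those on Tgfbr3, Pim1, Cd9, Pdcd1, Nags, Mall, Fdps, Gm3571, Gm5873, Plin2, Slc25a17, Plcb4, Ramp2 and Hp. Of the 96 genes, 29 were called in all 10 fits that left out 1 library. Where a gene named below lost its call in such a fit, the libraries are given beside it, or for Gm3571 and Gm5873 the number of fits. In bulk libraries such as these, fewer cells of a type and less RNA per cell cannot be told apart.

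Markers of granulosa cells were present in both genotypes, with an overlapping sum over 14 genes of 6603 to 8905 CPM in wild type and 5604 to 10203 CPM in the knockout. In WT 1, Serpine2 gave 4490 and Inha 1174 of 7739 CPM, so the sum says little about members of low level. None of the 14 was called, and they moved both ways, such as Serpine2 downward and Nr5a2 upward. Foxl2 did not overlap, at 1.83 to 10.8 CPM in wild type and 12.1 to 28.3 CPM in the knockout. Theca and stroma genes (10 in the table) summed to 65.8 to 225 CPM in wild type and 109 to 236 CPM in the knockout. Most of that was Dcn, at 0 to 141 CPM, Ptch1, at 22.02 to 70.7 CPM, and Aldh1a1, the called member of this list, which is described with the retinoid genes. Endothelial genes (8) summed to 27.2 to 48.9 CPM in wild type and 25.1 to 53.2 CPM in the knockout, led by Cdh5 at 5.35 to 40.9 CPM and Pecam1 at 1.72 to 9.55 CPM. The theca genes Cyp17a1 and Insl3 and the endothelial genes Tek, Emcn and Plvap were not analysed here. Other cell types entered unevenly. Oocyte genes (14 in the table) summed to 318 to 438 CPM in WT 3, WT 4 and WT 5 and to 123 CPM in KO 1, against 7.20 to 38.8 CPM in the other 6. Immune genes (15) reached 3126 CPM in WT 5 and 3613 CPM in KO 1, against 290 to 1464 CPM elsewhere. Oviduct epithelium genes, a list of 15 added after the data had been seen, reached 8430 CPM in WT 2, most of it the oviductal glycoprotein Ovgp1 at 7522 CPM, and 86 to 1692 CPM elsewhere. Ovarian surface epithelium was the one list that separated the genotypes, and it is given beside the keratins. The part of these cells in the called genes was not tested beyond the fits given beside the results.

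**Figure D2:**
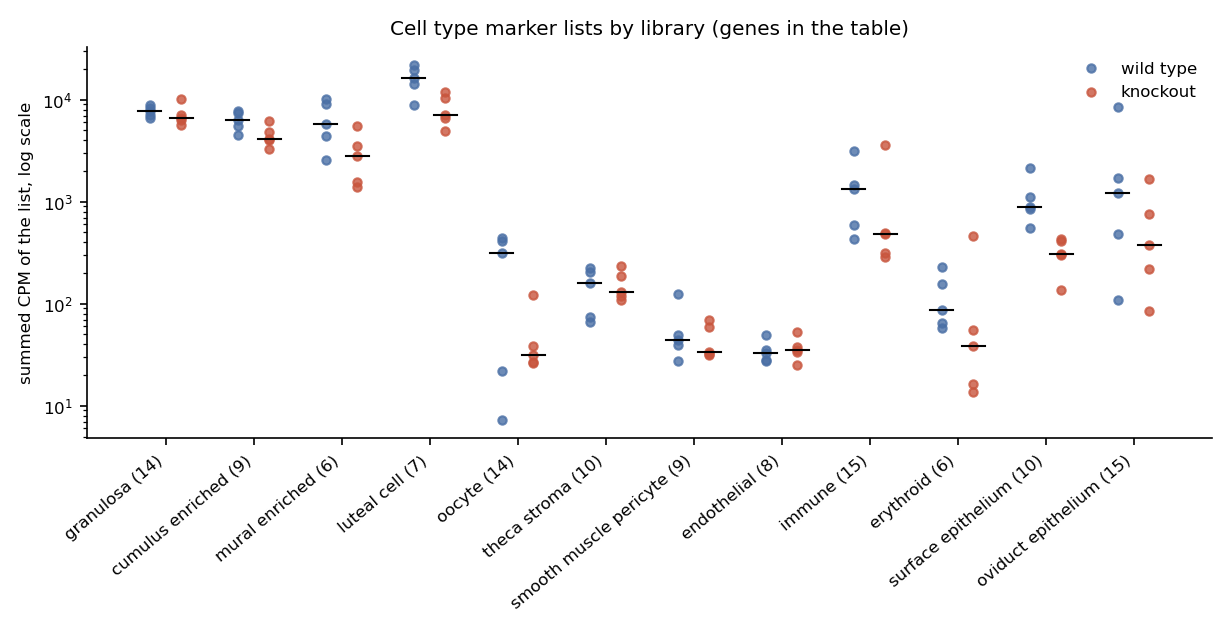
Summed level of each cell type marker list (vertical axis, CPM, log scale) in every library, with wild type in blue, knockout in red and the group median as a bar; the number of genes in the table stands in parentheses. Granulosa lists overlap between genotypes, surface epithelium does not (555 to 2138 CPM against 136 to 433), and single libraries stand out for oviduct, immune, erythroid and oocyte genes.

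Esr2 itself, at chr12:76120419-76177259 on the minus strand (GRCm38, GENCODE), checks the labels. It was at 17.3, 23.5, 29.1, 31.8 and 30.98 CPM in WT 1 to WT 5 and at 0 CPM in each of KO 1 to KO 5. The 5 wild type libraries held 478 Esr2 counts in all and the knockout libraries none, so with a limit of 3 counts over the group the gene was at least 129-fold lower (adjusted p = 0.000223). Counting error only enters that limit. The other nuclear estrogen receptor, Esr1, was not called: it measured 28.9 ± 15.6 CPM (SD, n = 5) in wild type and 42.1 ± 18.8 CPM (n = 5) in the knockout, a log2 fold change of 0.53 ± 0.39 (SE) with adjusted p = 0.471. Throughout, ± marks the SD over 5 libraries after a CPM mean and the SE after a log2 fold change. Of 23 tested receptors and cofactors of steroid hormones, Esr2 was the single called gene.

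Genes known to respond to estrogen in other tissues showed no call among 22 tested. Of them 2 were higher and 4 lower at an unadjusted p under 0.05, against 18.6% of all tested genes in either direction. The median log2 fold change of the list was -0.27. That median ran from -0.70 to 0.63 across the alternative fits. Greb1, a classical estrogen target, was at 505, 291, 591, 551 and 626 CPM in WT 1 to WT 5 and at 851, 841, 1032, 850.4 and 902 CPM in KO 1 to KO 5. Its groups did not overlap and the knockout values were the larger, but the difference did not pass adjustment (log2 fold change 0.80 ± 0.23, adjusted p = 0.112). Nrip1, a corepressor of the estrogen receptors needed for ovulation, gave 0.92 ± 0.24 with adjusted p = 0.0818. In the other direction lay Ltf and Lcn2, secreted proteins of iron binding that estrogen raises in the uterus. Ltf was at 37.4, 478, 20.3, 91.2 and 3.94 CPM in WT 1 to WT 5 and at 0, 16.4, 2.83, 9.03 and 20.3 CPM in KO 1 to KO 5 (-3.62 ± 1.18, adjusted p = 0.165). Lcn2 was at 64.8, 276, 12.7, 30.5 and 4.88 CPM in WT 1 to WT 5 and at 2.73, 15.5, 1.62, 7.90 and 7.04 CPM in KO 1 to KO 5 (-3.49 ± 1.03, adjusted p = 0.133). Both were highest in WT 2, the library with the most oviduct marker signal, and their groups overlapped.

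The luteinizing hormone receptor was lower in the knockout. Lhcgr (chr17:88716481-88791990, minus strand), the receptor through which the ovulatory surge acts, was at 21.6, 37.6, 91.2, 78.96 and 26.3 CPM in WT 1 to WT 5 and at 2.73, 3.45, 7.69, 6.45 and 1.08 CPM in KO 1 to KO 5. The highest knockout library stayed below the lowest wild type library, although the wild type values themselves spread widely, with WT 3 and WT 4 the highest. The log2 fold change was -3.51 ± 0.54 with adjusted p = 0.00746, and the gene was called in all 10 fits that left out a library. Lhcgr was the single called gene among 16 luteal genes, whose median log2 fold change was -0.05, with the sign reversed under scaling by library totals. The 2 marker lists that include Lhcgr overlapped between genotypes: mural granulosa genes summed to 2557 to 10209 CPM in wild type and 1409 to 5515 CPM in the knockout, and luteal cell genes to 8847 to 22013 and 4909 to 12037 CPM. Cyp11a1 made up most of the mural sum, 9651 of 10209 CPM in WT 3, and together with Hsd3b1 most of the luteal sum. These sums therefore say little about members of low level such as Lhcgr.

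Below are shown the 250 bases upstream of the RefSeq start of 4 called genes, the gonadotropin receptor Lhcgr, the thyroid hormone receptor Thrb and the keratin pair Krt8 and Krt18 (GRCm38.p6, each 5′ to 3′ on the gene's own strand). Of the 40 called genes named by smallest p, 28 had such a window, and 8 of these held the hexamer marked here. The 4 shown were taken from those 8, so the presence of the hexamer in them was fixed by that choice. Capitals mark AGGTCA, the hexamer bound singly or in pairs by estrogen receptors and several other nuclear receptors, on either strand; it begins 122 bases before the start in Lhcgr, 184 in Thrb, 225 in Krt8 and 108 in Krt18.
Lhcgr, chr17:88792015-88792264, minus strand: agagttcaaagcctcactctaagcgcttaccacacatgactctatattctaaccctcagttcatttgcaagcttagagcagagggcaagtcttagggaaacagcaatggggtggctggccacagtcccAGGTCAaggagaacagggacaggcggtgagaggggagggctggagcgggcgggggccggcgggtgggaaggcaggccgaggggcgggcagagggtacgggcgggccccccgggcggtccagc
Thrb, chr14:17660710-17660959, plus strand: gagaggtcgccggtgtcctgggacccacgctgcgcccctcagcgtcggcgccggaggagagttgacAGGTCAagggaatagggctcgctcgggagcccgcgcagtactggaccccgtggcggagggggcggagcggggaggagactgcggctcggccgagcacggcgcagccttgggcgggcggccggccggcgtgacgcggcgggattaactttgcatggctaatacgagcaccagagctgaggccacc
Krt8, chr15:102004343-102004592, minus strand: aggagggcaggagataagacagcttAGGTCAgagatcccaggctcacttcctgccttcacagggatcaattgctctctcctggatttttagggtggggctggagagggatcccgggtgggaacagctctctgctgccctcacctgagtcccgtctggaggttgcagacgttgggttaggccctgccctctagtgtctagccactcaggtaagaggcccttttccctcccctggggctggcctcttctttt
Krt18, chr15:102027966-102028215, plus strand: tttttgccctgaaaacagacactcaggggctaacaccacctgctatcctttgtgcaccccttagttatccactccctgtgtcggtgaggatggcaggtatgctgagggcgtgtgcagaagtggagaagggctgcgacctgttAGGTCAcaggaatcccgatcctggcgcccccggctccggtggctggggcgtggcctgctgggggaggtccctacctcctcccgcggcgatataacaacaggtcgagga
RefSeq and GENCODE place some of these starts differently. The Thrb window lies within the GENCODE span of the gene, and the Krt8 and Krt18 windows partly overlap theirs. RefSeq windows were at hand for 38 of the higher and 28 of the lower genes. The letters AGGTCA stood in 4 of the 38 higher genes (Hs6st2, Mef2c, Rasgrp3 and Thrb) and in 7 of the 28 lower genes (Krt18, Krt8, Lhcgr, Nags, Pdcd1, Plin2 and Slc11a1), against 12.8% of 8983 tested genes and 14.02% of all 32851 windows of that length. The full palindrome GGTCANNNTGACC, an inverted repeat of GGTCA with 3 bases between, was in none of these 66 genes and in 0.0639% of all windows. A match describes letters in a window and shows no binding, and its lack says nothing about binding elsewhere.

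Among 21 tested genes of steroid synthesis and metabolism 1 was called. The list had a median log2 fold change of -0.31 (-0.43 to 0.37 across the alternative fits). In it 2 genes were higher and 5 lower at an unadjusted p under 0.05, against 18.6% of all tested genes in either direction. Cyp1b1, which hydroxylates estradiol, was at 248, 117, 164, 153 and 220.0 CPM in WT 1 to WT 5 and at 788, 881, 406, 427 and 324 CPM in KO 1 to KO 5. It was higher in the knockout without overlap, most so in KO 1 and KO 2 (log2 fold change 1.65 ± 0.32, adjusted p = 0.0263), and was not called without KO 1, KO 2, WT 2, WT 3 or WT 4 (adjusted p = 0.0508 to 0.107). Cyp11a1, the enzyme that opens steroid synthesis from cholesterol, was abundant and variable, at 5927 ± 3175 CPM in wild type and 2594 ± 1718 CPM in the knockout (adjusted p = 0.228). Cyp19a1, the aromatase that makes estradiol, was low everywhere, at 7.20, 19.8, 5.02, 6.29 and 2.44 CPM in WT 1 to WT 5 and 2.73, 1.72, 0.405, 3.71 and 0.812 CPM in KO 1 to KO 5, with the groups overlapping (adjusted p = 0.146).

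Akr1c18, which inactivates progesterone in the regressing corpus luteum, lay at the threshold. It was at 2403, 2214, 2980.4, 2888 and 5301 CPM in WT 1 to WT 5 and at 1937, 728, 377, 593 and 446 CPM in KO 1 to KO 5, so that every knockout library was below every wild type library. WT 5 was the highest of its group and KO 1 the highest of its own. The log2 fold change was -1.96 ± 0.43 with an adjusted p of 0.05004 as fitted, just past the limit, and the gene is not counted as called. Ptgfr, the prostaglandin F receptor of luteal cells, gave -2.44 ± 0.56 with adjusted p = 0.0572. Ptgis, the prostacyclin synthase, was the called member of 19 prostaglandin genes: it rose from 27.4 ± 7.68 CPM to 80.7 ± 20.3 CPM (log2 fold change 1.53 ± 0.27, adjusted p = 0.0142), but not without KO 5 or WT 2 (adjusted p = 0.0512 to 0.0577).

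Among 29 tested genes of granulosa identity and the response to follicle-stimulating hormone no gene was called. While 13 were higher and 2 lower at an unadjusted p under 0.05, so were 18.6% of all tested genes in either direction. The median log2 fold change of the list was 0.47 (0.28 to 0.71 across the alternative fits). Nr5a2, a nuclear receptor required for ovulation, was at 154, 60.8, 76.1, 59.8 and 148 CPM in WT 1 to WT 5 and at 345, 723, 308, 148 and 169.5 CPM in KO 1 to KO 5. KO 2 was the highest, while KO 4 lay among the wild type values and KO 5 just above them (log2 fold change 1.77 ± 0.44, adjusted p = 0.0742). Kitl, the growth factor granulosa cells send to the oocyte, gave 1.48 ± 0.38 (adjusted p = 0.0771) and Foxl2, the transcription factor that maintains granulosa identity, gave 1.37 ± 0.47 (adjusted p = 0.165). None of 16 ovulation and cumulus expansion genes was called, and the protease Adamts4 of that list gave -1.77 ± 0.50 with adjusted p = 0.105.

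**Figure D3:**
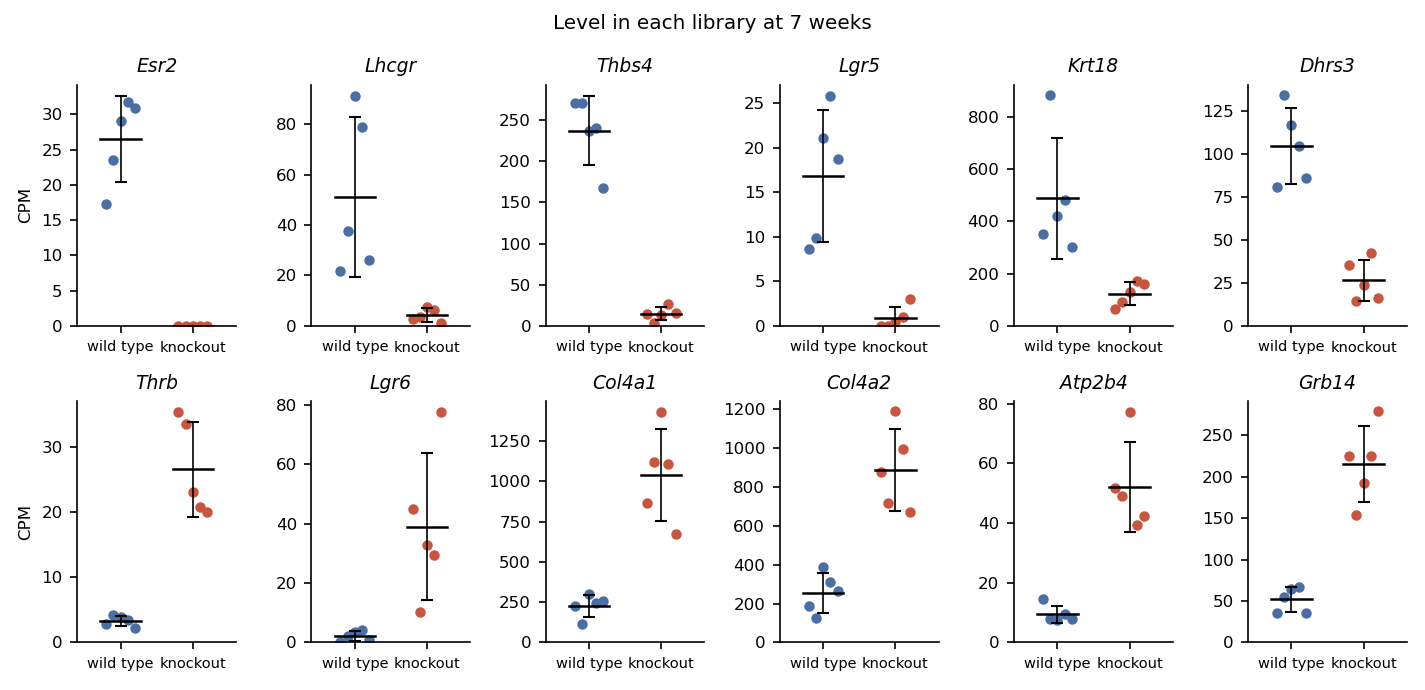
Level of 12 called genes in every library (vertical axes, CPM, each from 0), with wild type in blue and knockout in red; black bars are the mean and whiskers the SD of 5 libraries. Esr2 is at 0 in all knockout libraries, and in each of the 12 genes the knockout libraries lie wholly below (upper row) or above (lower row) the wild type libraries.

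Of 19 tested basement membrane genes 4 were called higher and none lower. At an unadjusted p under 0.05, 8 were higher and 2 lower, against 18.6% of all tested genes in either direction. The list had a median log2 fold change of 0.49 (0.31 to 0.95 across the alternative fits), against 0.01 over all genes. The called members were both chains of the main type IV collagen, the calcium-binding matricellular protein Smoc1 and the linker protein nidogen 2. Col4a1 was at 227, 113, 297, 242 and 258 CPM in WT 1 to WT 5 and at 867, 1118, 1432, 1109 and 671 CPM in KO 1 to KO 5. Col4a2 was at 186, 123, 386, 312 and 267 CPM in WT 1 to WT 5 and at 877, 717, 1189, 993 and 671 CPM in KO 1 to KO 5. In both genes KO 3 was the highest library and KO 5 the lowest of the knockout, still well above the highest wild type library, WT 3. Log2 fold changes were 2.19 ± 0.29 for Col4a1 (adjusted p = 0.00299) and 1.800 ± 0.30 for Col4a2 (adjusted p = 0.0128), and both held in all 10 fits without 1 library. Without the shallow pair Col4a1 was called and Col4a2 was not.

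The 2 collagen chains are transcribed from facing starts on chromosome 8, Col4a1 at chr8:11198423-11312826 on the minus strand and Col4a2 at chr8:11312805-11449287 on the plus strand, so their first exons overlap by 22 bases. That shared stretch, chr8:11312805-11312826 read on the plus strand, is shown to place the pair (GRCm38.p6, no capitals set).
Col4a2 start to Col4a1 start: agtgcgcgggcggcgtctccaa

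Smoc1 was at 4.32, 8.09, 19.03, 13.2 and 15.4 CPM in WT 1 to WT 5 and at 45.01, 59.5, 64.4, 53.8 and 49.3 CPM in KO 1 to KO 5, with the knockout libraries close together and the wild type more spread (log2 fold change 2.11 ± 0.32, adjusted p = 0.00746). Nid2 rose from a very low level, 1.61 ± 0.661 CPM, to 11.5 ± 4.14 CPM (log2 fold change 2.801 ± 0.49, adjusted p = 0.0142), and was not called without WT 3 (adjusted p = 0.0647). Hspg2, which encodes the proteoglycan perlecan, was positive but overlapped between groups (log2 fold change 1.43 ± 0.56, adjusted p = 0.211), and the laminin chain Lama5 was negative and overlapped too (-2.09 ± 0.85, adjusted p = 0.22). Of 25 tested genes that fold, cross-link or cut collagen, Loxl2 was called: this lysyl oxidase, which cross-links type IV collagen, was at 44.6, 27.9, 40.7, 36.5 and 28.9 CPM in WT 1 to WT 5 and at 128, 126, 148, 117 and 87.7 CPM in KO 1 to KO 5. Even the lowest knockout library, KO 5, lay above the highest wild type library, WT 1, with a log2 fold change of 1.78 ± 0.24 and adjusted p = 0.00299. Plod1, a lysyl hydroxylase of the same list, pointed downward without passing the test (-1.41 ± 0.35, adjusted p = 0.0742), and Adamts2, a procollagen peptidase, upward (1.39 ± 0.32, adjusted p = 0.0572).

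Among 23 tested genes of the interstitial matrix, 1 rose and 2 fell. Thbs4, a thrombospondin of the pericellular matrix, showed the clearest fall after Esr2: it was at 271, 270.3, 237, 241 and 167 CPM in WT 1 to WT 5 and at 15.002, 3.45, 13.8, 26.8 and 15.7 CPM in KO 1 to KO 5. The lowest wild type library, WT 5, remained far above the highest knockout library, KO 4, and KO 2 held least (log2 fold change -3.92 ± 0.38, adjusted p = 0.000223). Col6a3, a chain of type VI collagen, fell from 34.9 ± 13.97 to 9.04 ± 4.39 CPM (log2 fold change -1.86 ± 0.37, adjusted p = 0.034), a call lost without KO 1, KO 2, KO 5, WT 1, WT 2, WT 4 or WT 5 (adjusted p = 0.0528 to 0.0877). Ccn2, the connective tissue growth factor, moved the other way, at 2.88, 7.31, 3.70, 5.66 and 3.38 CPM in WT 1 to WT 5 and 12.3, 24.1, 59.5, 25.5 and 21.4 CPM in KO 1 to KO 5. KO 3 held far more than the others, and the remaining 4 also exceeded the wild type (log2 fold change 2.602 ± 0.43, adjusted p = 0.011). Thbs1 and Col5a1, uncalled members of the list, gave 1.31 ± 0.31 (adjusted p = 0.0633) and -1.26 ± 0.32 (adjusted p = 0.0771).

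Proteases and their inhibitors were called in both directions, 3 higher and 1 lower of 25 tested. Itih5, a hyaluronan-binding inhibitor chain, rose from 1.31 ± 0.297 to 10.4 ± 4.28 CPM (log2 fold change 3.01 ± 0.48, adjusted p = 0.00929). Adamts9, a protease of versican, rose from 42.7 ± 13.95 to 128 ± 48.3 CPM (adjusted p = 0.0275), though not without KO 1, KO 3, WT 2, WT 3 or WT 4 (adjusted p = 0.0678 to 0.11). Mmp16, a membrane-anchored metalloproteinase, rose from 2.55 ± 1.48 to 11.6 ± 2.17 CPM with adjusted p = 0.0445 and was the least firm of them, kept in 1 of 10 fits and lost without KO 1, KO 2, KO 3, KO 5, WT 1, WT 2, WT 3, WT 4 or WT 5 (adjusted p = 0.0685 to 0.123), and lost as well with the length trend removed (adjusted p = 0.0676). Xpnpep2, a membrane aminopeptidase, fell from 21.5 ± 7.96 to 3.25 ± 1.52 CPM (log2 fold change -2.77 ± 0.45, adjusted p = 0.0102). Plat, the tissue plasminogen activator of preovulatory follicles, and Serpine2, its inhibitor, were lower in the means without passing adjustment (-1.55 ± 0.36, adjusted p = 0.0589, and -0.93 ± 0.26, adjusted p = 0.104).

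Of 28 integrins and adhesion molecules 1 rose and 1 fell. Itgb3, the beta chain of the vitronectin receptor, was at 102, 54.5, 148, 126 and 137 CPM in WT 1 to WT 5 and at 368, 206, 765, 360.2 and 336 CPM in KO 1 to KO 5. KO 3 stood far above and KO 2 nearest to the wild type values (log2 fold change 1.84 ± 0.35, adjusted p = 0.0263), and the call ended without KO 1, KO 3, KO 5, WT 1, WT 2, WT 3 or WT 4 (adjusted p = 0.0514 to 0.0818). Ncam1, a neural cell adhesion molecule, fell from 27.8 ± 7.61 to 10.2 ± 2.82 CPM at adjusted p = 0.0489 and lost its call without KO 1, KO 2, KO 3, KO 4, KO 5, WT 1, WT 2, WT 3 or WT 4 (adjusted p = 0.0588 to 0.155).

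The 2 R-spondin receptors in the Wnt list moved in opposite directions, with 1 higher and 1 lower of 34 tested. Both Lgr5 and Lgr6 encode seven-pass membrane proteins that bind R-spondins and strengthen Wnt signalling. Lgr5 was at 8.64, 9.92, 21.1, 25.8 and 18.8 CPM in WT 1 to WT 5 and at 0, 0, 0.405, 0.967 and 2.98 CPM in KO 1 to KO 5. Lgr6 was at 0, 2.09, 3.44, 4.09 and 0.751 CPM in WT 1 to WT 5 and at 45.01, 10.3, 32.8, 29.3 and 77.4 CPM in KO 1 to KO 5. Lgr5 was at 0 in KO 1 and KO 2 and highest in KO 5 among the knockout libraries, while Lgr6 was at 0 in WT 1 and highest in KO 5. The log2 fold changes, -3.84 ± 0.62 (adjusted p = 0.0103) and 4.07 ± 0.59 (adjusted p = 0.00622), rest on low counts on the lower side of each comparison, and both were called in all 10 fits without 1 library. Sfrp2, a secreted Wnt antagonist, gave 1.05 ± 0.32 with adjusted p = 0.129.

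Thyroid hormone and retinoid genes had 3 of 18 members called. Thrb (chr14:17660261-18038090, plus strand), the thyroid hormone receptor beta, gave the smallest adjusted p among the higher genes (0.00128, equal to that of Atp2b4). It was at 2.88, 4.18, 3.96, 3.46 and 2.25 CPM in WT 1 to WT 5 and at 35.5, 33.6, 23.1, 20.8 and 20.04 CPM in KO 1 to KO 5. The wild type libraries lay close together and all knockout libraries far above them, with KO 1 and KO 2 highest (log2 fold change 2.94 ± 0.34). Klf9, a transcription factor that thyroid hormone induces in other tissues, gave 1.54 ± 0.41 with adjusted p = 0.0902 and overlapped between groups.

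The retinoid members moved apart. Aldh1a1, which oxidises retinaldehyde to retinoic acid, was at 21.7 ± 3.65 CPM in wild type and 61.6 ± 24.5 CPM in the knockout (log2 fold change 1.51 ± 0.31, adjusted p = 0.037), a call lost without KO 1, KO 2, KO 5, WT 1, WT 2, WT 3, WT 4 or WT 5 (adjusted p = 0.0572 to 0.107). Dhrs3, which reduces retinaldehyde back to retinol, was at 80.6, 134, 117, 104 and 85.6 CPM in WT 1 to WT 5 and at 35.5, 14.7, 23.9, 42.2 and 16.2 CPM in KO 1 to KO 5. No knockout library reached the lowest wild type library, and KO 1 and KO 4 came nearest (log2 fold change -1.98 ± 0.31, adjusted p = 0.00929). Aldh1a3 gave -2.27 ± 0.60 with adjusted p = 0.0886.

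Several called genes act in intracellular signalling. Atp2b4, a plasma membrane pump that expels calcium, was the called member of 25 calcium genes, at 14.4, 7.83, 7.66, 9.44 and 7.88 CPM in WT 1 to WT 5 and 51.8, 49.1, 77.4, 39.5 and 42.5 CPM in KO 1 to KO 5. WT 1, the shallowest library, stood highest of its group and KO 3 highest of all (log2 fold change 2.53 ± 0.30, adjusted p = 0.00128). Camk2d, a calcium-dependent kinase, gave 1.14 ± 0.27 with adjusted p = 0.0589. Of 37 regulators of small GTPases 2 were called, both higher. Another measure, an unadjusted p under 0.05, gave 16 higher and 1 lower, against 18.6% of all tested genes in either direction. Their median log2 fold change was 0.57 (0.35 to 0.65 across the alternative fits). Pak3, a kinase activated by Rac and Cdc42, rose from 20.2 ± 3.98 to 88.3 ± 29.2 CPM (adjusted p = 0.00299). Rasgrp3, which loads Ras and Rap with GTP in response to diacylglycerol, rose from 2.37 ± 0.957 to 18.2 ± 5.80 CPM (adjusted p = 0.00632).

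Insulin and PI3 kinase genes (34 tested) were called once in each direction. Grb14, an adaptor that inhibits the insulin receptor, was at 35.98, 55.3, 64.7, 67.01 and 36.05 CPM in WT 1 to WT 5 and at 225, 154, 192, 225 and 279 CPM in KO 1 to KO 5. The lowest knockout library, KO 2, was above the highest wild type library, WT 4 (log2 fold change 2.04 ± 0.26, adjusted p = 0.00265). Pik3c2g, a class II PI3 kinase, fell from 58.8 ± 16.4 to 20.1 ± 5.35 CPM (adjusted p = 0.018), with the call lost without KO 1 or KO 5 (adjusted p = 0.0514 to 0.0575). Irs2 and Foxo1, a docking protein of the insulin receptor and a transcription factor that insulin signalling restrains, gave 1.46 ± 0.35 (adjusted p = 0.0686) and 1.07 ± 0.27 (adjusted p = 0.0771).

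In the TGF-beta, BMP and activin group 1 of 41 tested genes was called. Tgfbr3, the co-receptor betaglycan that also binds inhibin, was at 27.3, 11.5, 22.5, 16.04 and 18.4 CPM in WT 1 to WT 5 and 85.9, 209.5, 64.8, 46.9 and 36.3 CPM in KO 1 to KO 5. KO 2 held far more than the next library, KO 1 (log2 fold change 2.23 ± 0.45, adjusted p = 0.0339), and the call ended without KO 1, KO 3, WT 2, WT 3, WT 4 or WT 5 (adjusted p = 0.0528 to 0.114). Bmpr2, the receptor of oocyte-derived GDF9 and BMP15, gave 1.28 ± 0.31 (adjusted p = 0.0699) and Grem1, a secreted BMP antagonist, 0.96 ± 0.27 (adjusted p = 0.105). The list of the Eya family and related developmental regulators had a median log2 fold change of 0.62 (0.36 to 0.74 across the alternative fits). Its called gene of 21 was Eya4, a transcriptional coactivator and phosphatase. It was at 4.32, 3.91, 3.17, 2.52 and 4.32 CPM in WT 1 to WT 5 and at 28.6, 43.1, 22.3, 12.7 and 20.3 CPM in KO 1 to KO 5, without overlap, with KO 2 the highest (adjusted p = 0.00424). Sox4, of the same list, gave 1.52 ± 0.39 with adjusted p = 0.0789.

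Outside the lists stood 5 of the 20 higher genes with the smallest p. Masp1, a serine protease of the lectin complement pathway, was at 82.03, 81.2, 131, 119 and 78.3 CPM in WT 1 to WT 5 and at 236, 285, 255, 289 and 278 CPM in KO 1 to KO 5, a tight rise in all 5 libraries (log2 fold change 1.45 ± 0.22, adjusted p = 0.00746). Hs6st2, which adds sulfate to heparan sulfate chains, rose by 1.99 ± 0.32 on the log2 scale and Nrp2, a co-receptor of semaphorins and VEGF, by 2.68 ± 0.43. Ank3, the ankyrin that ties membrane proteins to spectrin, rose by 1.58 ± 0.26, and Dtna, a dystrophin-associated protein, by 2.500 ± 0.38. These 5 genes were called in all 10 fits without 1 library. Rel, an NF-kappaB subunit, rose from 18.7 ± 4.98 to 55.2 ± 15.01 CPM (adjusted p = 0.0145), but not without WT 2 or WT 4 (adjusted p = 0.0573 to 0.0695). Pim1, a kinase induced by cytokines, rose from 13.8 ± 4.47 to 38.004 ± 10.3 CPM (adjusted p = 0.0492), a call lost without KO 1, KO 2, KO 3, KO 5, WT 1, WT 2, WT 3 or WT 4 (adjusted p = 0.0512 to 0.148).

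Keratins and cell junction genes held 4 called members of 29 tested, all lower, and their median log2 fold change was -0.11 (-0.34 to 0.54 across the alternative fits). Krt18, a type I keratin, was at 353, 882, 421, 479.7 and 303 CPM in WT 1 to WT 5 and at 64.1, 92.3, 129, 171 and 159 CPM in KO 1 to KO 5. Krt8, the type II keratin that pairs with it, was at 317, 643, 404, 445 and 237 CPM in WT 1 to WT 5 and at 69.6, 122, 125, 176 and 129 CPM in KO 1 to KO 5. Both were highest in WT 2 and lowest in KO 1, and in neither did the groups overlap; the 2 genes are neighbours on chromosome 15, 23698 bases apart. The log2 fold changes were -1.98 ± 0.34 for Krt18 (adjusted p = 0.0141; not called without KO 3 (adjusted p = 0.0559)) and -1.71 ± 0.30 for Krt8 (adjusted p = 0.0152; not called without KO 3, KO 5 or WT 4 (adjusted p = 0.0509 to 0.0631)). Krt8 and Cd9 have annotated processed pseudogenes that could share reads with them, so their levels are less certain.

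The surface epithelium list, in which Krt8 and Krt18 are themselves members, summed to 555 to 2138 CPM in wild type and 136 to 433 CPM in the knockout. Its other 8 genes in the table, among them Krt7, Krt19, Upk3b and Msln, summed to 180, 613, 72.7, 185 and 14.5 CPM in WT 1 to WT 5 and to 2.73, 88.8, 52.2, 63.5 and 145 CPM in KO 1 to KO 5, which overlap. With the share of the whole list as a covariate 2 genes were called across the genome, and with oviduct markers as a covariate 61. Lin7b, a scaffold protein of epithelial junctions, fell from 46.1 ± 2.48 to 17.7 ± 2.05 CPM (adjusted p = 0.0103). Tspan8, a tetraspanin of epithelia, was at 8.64, 19.6, 14.8, 13.5 and 24.6 CPM in WT 1 to WT 5 and at 1.36, 2.59, 1.62, 1.29 and 0.812 CPM in KO 1 to KO 5, with even its lowest wild type library, WT 1, above all of the knockout (log2 fold change -3.52 ± 0.45, adjusted p = 0.00265). Cd9, another tetraspanin, fell from 482 ± 244 to 142 ± 42.1 CPM (adjusted p = 0.0262), a call lost without KO 1, KO 2, KO 3, KO 5, WT 1 or WT 2 (adjusted p = 0.0516 to 0.0823).

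Further lower genes were of mixed function. Pdcd1, known as the inhibitory receptor PD-1 of T cells, was at 712, 1020.0, 1073, 1092 and 681 CPM in WT 1 to WT 5 and 138, 75.9, 159, 438 and 325 CPM in KO 1 to KO 5. The groups did not overlap, with KO 4 nearest to the wild type (log2 fold change -2.003 ± 0.40, adjusted p = 0.0332), and the call ended without KO 1, KO 3, KO 5, WT 1, WT 2, WT 3 or WT 4 (adjusted p = 0.0509 to 0.122). Emb, the basigin relative embigin, fell from 751 ± 389 to 196 ± 52.04 CPM (adjusted p = 0.0142), with 1 exception without KO 3 (adjusted p = 0.0503).

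Dram1, a lysosomal protein that p53 induces in autophagy, was at 27.3, 25.1, 23.5, 38.1 and 35.9 CPM in WT 1 to WT 5 and at 10.9, 9.48, 5.26, 9.35 and 8.39 CPM in KO 1 to KO 5. Every wild type library was well above the highest knockout library, KO 1, and Dram1 was the called member of 32 autophagy and p53 genes (log2 fold change -1.82 ± 0.30, adjusted p = 0.011). Glipr1, a secreted protein first described in glioma, fell from 20.6 ± 7.46 to 3.86 ± 1.74 CPM (adjusted p = 0.0145), with the call lost without WT 3 or WT 4 (adjusted p = 0.0566 to 0.0568). Nags, which makes the activator of the urea cycle, fell from 23.97 ± 7.36 to 4.10 ± 3.31 CPM (adjusted p = 0.0235) and lost its call without KO 1, KO 3, KO 5, WT 2, WT 3 or WT 4 (adjusted p = 0.0514 to 0.084). Mall fell by -2.51 ± 0.48 on the log2 scale and lost its call without KO 1, KO 3, KO 5, WT 2, WT 3 or WT 4 (adjusted p = 0.0638 to 0.0901). Olfr810, an olfactory receptor gene, fell from 12.6 ± 6.36 to 1.45 ± 0.751 CPM, a call lost without KO 5 (adjusted p = 0.0516).

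Entpd1, the ectonucleotidase CD39 that degrades extracellular ATP, fell from 72.4 ± 24.1 to 24.6 ± 10.1 CPM and was the called member of 17 genes of extracellular ATP and adenosine (log2 fold change -1.59 ± 0.33, adjusted p = 0.0381). The list had the lowest median of all 29 lists as fitted, -0.74, but it ran from -0.92 to 0.10 across the alternative fits. The call on Entpd1 ended without KO 2, KO 3, KO 5, WT 2, WT 3 or WT 4 (adjusted p = 0.0701 to 0.115). Nt5e, the enzyme CD73 that makes adenosine in the next step, was at 142, 34.4, 53.6, 50.3 and 119 CPM in WT 1 to WT 5 and 43.6, 41.4, 17.8, 20.95 and 17.1 CPM in KO 1 to KO 5, with WT 2 inside the knockout range (adjusted p = 0.1). Fdps, which makes farnesyl diphosphate on the way to cholesterol, was the called member of 26 cholesterol genes, at 1346, 1593, 1249, 1089 and 996 CPM in WT 1 to WT 5 and 597, 688, 592, 697 and 456 CPM in KO 1 to KO 5. Its fall had the smallest size among the called genes (log2 fold change -1.05 ± 0.22, adjusted p = 0.0419) and was not called without KO 1, KO 2, KO 3, KO 5, WT 1, WT 2, WT 3 or WT 4 (adjusted p = 0.0593 to 0.117). The processed pseudogenes Gm3571 (367 ± 76.9 to 163 ± 30.8 CPM) and Gm5873 (127 ± 23.9 to 55.7 ± 9.00 CPM) were also called lower. They kept the call in 3 and 4 of the 10 fits without 1 library. As in Fdps, WT 2 was their highest library and KO 5 their lowest. Whether these loci share reads with Fdps was not tested, so its level is less certain.

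Cell cycle, glycolysis, apoptosis, endoplasmic reticulum chaperone and immediate early genes had no called member. In the cell cycle list 11 of 40 genes were lower and 3 higher at an unadjusted p under 0.05. Over all tested genes 18.6% passed that level in either direction. The cell cycle list had a median log2 fold change of -0.52 (-0.63 to -0.15 across the alternative fits). Ccnb2, a mitotic cyclin, was at 154, 129, 93.8, 82.4 and 108 CPM in WT 1 to WT 5 and 62.7, 41.4, 41.3, 68.02 and 56.05 CPM in KO 1 to KO 5, without overlap, yet it was not called (adjusted p = 0.06). Cdc20 and Tyms gave -1.08 ± 0.28 (adjusted p = 0.0798) and -0.93 ± 0.25 (adjusted p = 0.0886). In glycolysis 9 of 24 genes were lower and 1 higher at that level, with a median of -0.47 (-0.81 to 0.04 across the alternative fits). Ldha gave -0.80 ± 0.25 and Eno1 -0.92 ± 0.30, at adjusted p = 0.133 and 0.146, and KO 4 lay within the wild type range for both. Among apoptosis genes the caspase Casp6 gave -0.90 ± 0.23 (adjusted p = 0.0818) and the secreted chaperone Clu 1.35 ± 0.36 (adjusted p = 0.0902). Fosl2 and Klf2, transcription factors induced by many stimuli, gave 1.31 ± 0.29 (adjusted p = 0.0501) and 1.96 ± 0.45 (adjusted p = 0.0572).

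**Figure D4:**
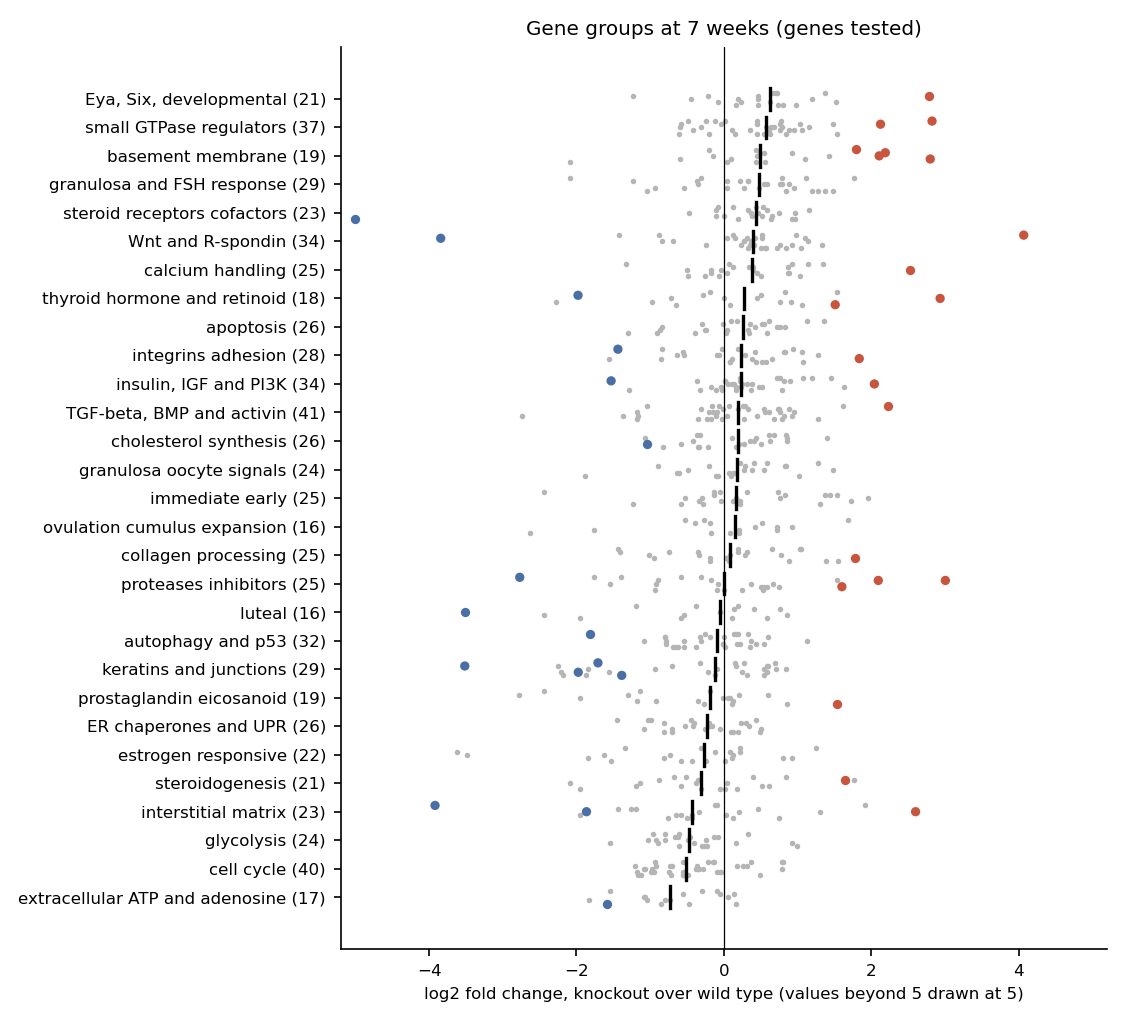
Log2 fold change of knockout over wild type (horizontal axis) for the tested members of 29 gene lists (vertical axis, number tested in parentheses). Grey points were not called, red points were called higher and blue points lower, and the black bar is the median of the list; medians run from -0.74 to 0.62, and the basement membrane, keratin and protease lists hold the most called members, 4 each.

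The knockout effect at 7 weeks was set beside the effects at 4 weeks and 6 months, each against wild type libraries of its own age, in 1 fit over 42 granulosa libraries and 14375 genes. In that fit 288 genes (2.0%) were called at 7 weeks, 503 (3.5%) at 4 weeks and 802 (5.58%) at 6 months. Of the 96 genes called in the 7 week libraries alone, 91 had the same sign at 4 weeks and 71 at 6 months. At 4 weeks 61 of them were called, all with the same sign, which is 63.5% of the 96 and 12.1% of the 503. At 6 months 32 were called, 31 with the same sign, which is 33.3% of the 96 and 3.99% of the 802. Called at all 3 ages were 28 genes, among them Thbs4, Thrb, Grb14, Pak3, Lgr6, Smoc1, Masp1, Dhrs3, Dram1, Ccn2, Nid2, Ptgis and Col6a3. Called at 7 weeks and at neither other age were 31, among them Loxl2, Hs6st2, Nrp2, Krt18, Cd9, Itgb3 and Ncam1.

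Thbs4 and Grb14 are examples of effects of similar size at each age. Thbs4 changed by -3.596 ± 0.32, -3.91 ± 0.39 and -4.31 ± 0.35 on the log2 scale at 4 weeks, 7 weeks and 6 months, and Grb14 by 2.05 ± 0.27, 2.02 ± 0.33 and 2.52 ± 0.24. For neither did the effect at 7 weeks differ from another age by test, with adjusted p from 0.41 to 0.988. Nid2 stayed high too, at 2.24 ± 0.51, 2.79 ± 0.62 and 3.08 ± 0.44. Lhcgr differed: its log2 fold change was -4.25 ± 0.53 at 4 weeks, -3.53 ± 0.61 at 7 weeks and -0.63 ± 0.43 at 6 months, and the effect at 7 weeks minus that at 6 months was -2.89 ± 0.72 (adjusted p = 0.0157). Its wild type level was 43.6 ± 29.7 CPM at 4 weeks (n = 7), 49.1 ± 31.4 CPM at 7 weeks (n = 5) and 20.9 ± 8.005 CPM at 6 months (n = 12).

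Between 7 and 4 weeks the effect differed in 1 gene of 14375 (0.00696%), and in none of the 96; 1829 genes had an unadjusted p under 0.05 and DESeq2 called 63. The gene was Col18a1, whose product yields endostatin and lies in vascular and epithelial basement membranes. It measured 179.8 ± 35.3 CPM in wild type and 49.5 ± 7.91 CPM in the knockout at 4 weeks, and 153 ± 51.01 and 137 ± 45.3 CPM at 7 weeks, on the scale of the joint fit. The effects were -1.86 ± 0.20 and -0.16 ± 0.23, a difference of 1.71 ± 0.30 (adjusted p = 0.016), which was lost without KO 3, KO 4, WT 2 or WT 5 (adjusted p = 0.0612 to 0.0989).

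Between 7 weeks and 6 months the effect differed in 1497 genes (10.4%). The log2 fold change at 7 weeks was higher in 817 of them and lower in 680. Among the 1497 were 46 of the 96, a share that choosing the 96 in the same 7 week libraries favours. The count of 1497 became 20 with the replicate number as a block. At 6 months there were 12 wild type and 6 knockout libraries, so wild type libraries numbered above 6 stood alone in their blocks. They added nothing to the knockout effect in that fit, which therefore rests on fewer libraries. It fell to 263 without WT 2, 966 without WT 3, 613 without WT 4, 924 without KO 1, 737 without KO 2 and 420 without KO 3, and rose to 2282 without KO 4. The genes with the smallest p on the higher side were Kif1b, Tnpo2, Rel, Pim1 and Vat1, a kinesin, a nuclear import receptor, an NF-kappaB subunit, a kinase and a vesicle protein. Pim1 is the widest apart of them, at 1.41 ± 0.40 at 7 weeks and -1.55 ± 0.35 at 6 months, a difference of 2.97 ± 0.53 (adjusted p = 0.00306). On the lower side were Rogdi, Tmem176b, Chchd6 and the aldolase Aldoc, which changed by -1.54 ± 0.48 at 7 weeks and 1.697 ± 0.36 at 6 months (difference -3.23 ± 0.61, adjusted p = 0.00572). Ccdc78 also belongs there by its p, but it was near 0 in the knockout at 7 weeks, 0.0314 ± 0.0702 CPM against 8.60 ± 10.8 CPM in wild type, and no fold is given.

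Members described above also differed between 7 weeks and 6 months. These genes, like Lhcgr, were named because they were called at 7 weeks, and this contrast uses the same 7 week libraries. That choice by itself favours a larger effect at 7 weeks, so these differences are no independent measure of it. Col4a1 changed by 2.17 ± 0.29 at 7 weeks and 0.61 ± 0.21 at 6 months (adjusted p of the difference = 0.0129), whereas for Col4a2 the difference of 1.13 ± 0.39 missed the threshold (adjusted p = 0.0515). The keratins were called lower at 7 weeks and were not called at 6 months, with differences of -2.48 ± 0.51 for Krt18 (adjusted p = 0.00879) and -1.43 ± 0.33 for Krt8 (adjusted p = 0.0129). At 4 weeks the pair parted, with Krt8 called lower at -0.91 ± 0.22 (adjusted p = 0.00963) and Krt18 at 0.02 ± 0.34 (adjusted p = 0.995). The genes Loxl2, Eya4, Atp2b4, Itgb3, Tspan8 and Entpd1 were likewise further from 0 at 7 weeks than at 6 months by this test, though 3 of these lost the call without 1 library: Loxl2 and Atp2b4 without WT 2 or KO 3, and Entpd1 without WT 2, WT 3, WT 4, KO 2 or KO 3. With the replicate number as a block, Krt18 and Itgb3 were still called for this difference (adjusted p = 0.0417 for both). Lhcgr, Col4a1, Krt8, Loxl2, Eya4, Atp2b4, Tspan8 and Entpd1 were not, at adjusted p from 0.0532 to 0.109. Among the genes with the smallest p, Kif1b, Tnpo2, Rel, Vat1 and Rogdi were still called with the block, and Pim1, Tmem176b, Chchd6 and Aldoc were not (adjusted p = 0.0519 to 0.0548).

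**Figure D5:**
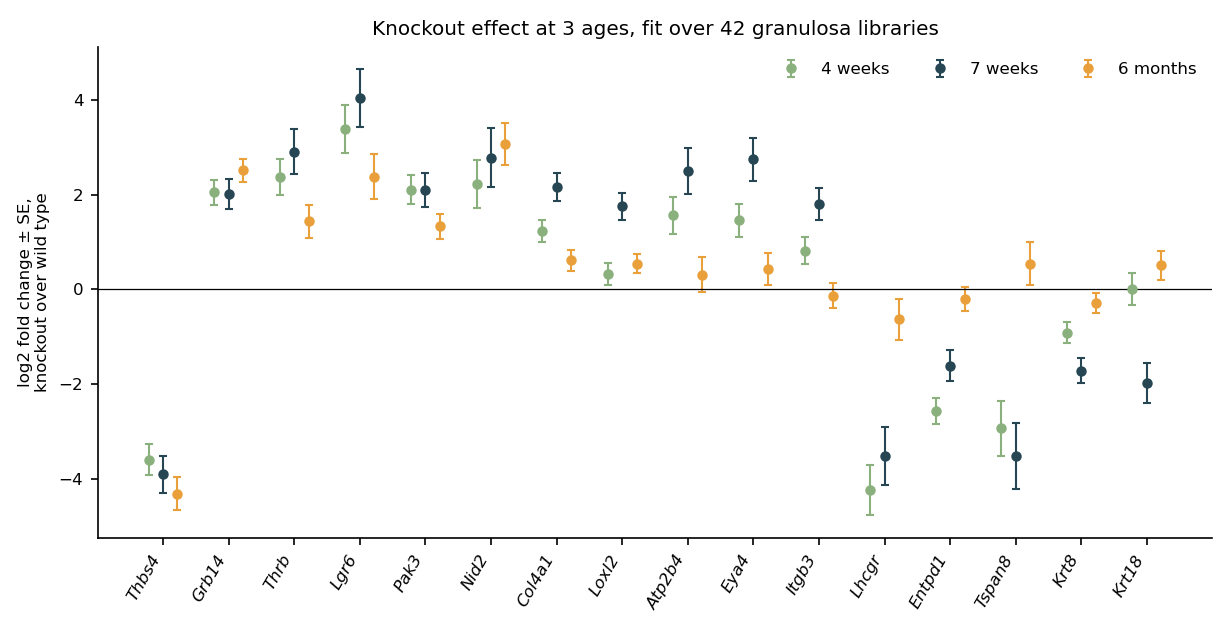
Log2 fold change ± SE of knockout over wild type (vertical axis) at 4 weeks (green), 7 weeks (dark) and 6 months (orange) for 16 of the genes called at 7 weeks, from the fit over 42 libraries. Thbs4 and Grb14 lie at similar values at the 3 ages, while Lhcgr is at -3.53 ± 0.61 at 7 weeks and -0.63 ± 0.43 at 6 months.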

How the data were processed

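Granulosa cells of 5 Esr2 knockout and 5 wild type libraries at 7 weeks were sequenced after Smart-seq2, per the labels' protocols. The authors deposited expected counts per gene symbol, 15.7% of them not whole, made with Partek and STAR on mm10, with DESeq2 also named, per the submitters' processing notes; versions, annotation and filters are not given in the sources used here. Counts were rounded. Total counts ran from 702731 to 6377094 per library, which limits precision for genes of low level in the smallest ones, and no row lacked a gene name. Genes were kept by filterByExpr (minimum count 10, minimum total 15), scaled by TMM and tested with edgeR 4.0.16 (robust quasi-likelihood test, knockout against wild type, Benjamini-Hochberg adjustment over 12002 genes, threshold 0.05) in R 4.3.3. CPM values are counts per 1000000 of the TMM-scaled library size. A joint fit over 42 granulosa libraries gave the effects at 3 ages and their differences; 68 of its genes had no row at 1 or more ages and were entered as 0 there, none of them among those named for the ages. Limma 3.58.1 and DESeq2 1.42.0 served as alternatives. Positions and lengths come from GENCODE vM21 (GRCm38) and sequences from RefSeq (GRCm38.p6), matched by symbol; 11828 tested genes had a length.

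Genes named are Esr2 and Esr1, the 20 higher and 20 lower called genes with the smallest p and 5 CPM or more on average where higher (clone, predicted and pseudogene names left out), called members of 29 gene lists with up to 4 uncalled ones, and up to 5 per direction for each age difference. A few genes that this rule names are not reported here. The members and lists were chosen with earlier results of these data known. Alternatives varied scaling, filter, robustness, tool, depth (thinning), a length trend, marker covariates, a replicate block and leaving out libraries. The oviduct and ribosomal RNA covariates were chosen after seeing the data. Oocyte libraries, miRNA data and the deposited normalized tables were not used here.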

Additional observations from a re-analysis of the deposited data

Results flagged for a closer look

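Single libraries stood apart from the other 4 of their genotype, by a gap to the next library larger than Dixon's limit of 0.71 of the range, in 17 of 217 groups of 5 examined. For normally distributed values that limit flags about 1 group in 20 by chance. Here it was applied to untransformed CPM in groups that share the same libraries, so that rate may not hold. Among marker lists the flagged ones were oviduct genes in WT 2 (8430 CPM, next 1692), smooth muscle and pericyte genes in WT 2 (126 CPM, next 49.4), immune genes in KO 1 (3613 CPM, next 492), oocyte genes in KO 1 (122.7 CPM, next 38.8) and erythroid genes in KO 5 (457.1 CPM, next 55.9). Among called genes they were Atp2b4 in WT 1 (14.39 CPM, next 9.44), Ccn2 in KO 3 (59.53 CPM, next 25.5), Itgb3 in KO 3 (765.4 CPM, next 368), Tgfbr3 in KO 2 (209.5 CPM, next 85.9), Prkaa2 in WT 1 (2.878 CPM, next 1.13) and Hp in WT 2 (289.1 CPM, next 124). Among genes not called they were Akr1c18 in WT 5 (5301 CPM, next 2980.4) and in KO 1 (1937 CPM, next 728), Ptgfr in WT 4 (15.41 CPM, next 10.2), Cyp19a1 in WT 2 (19.83 CPM, next 7.20), Kitl in WT 3 (11.1 CPM, next 6.00) and Sox4 in KO 3 (501.4 CPM, next 206). In all of them the library was the highest of its group.

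Knockout effects that differed between ages by the contrast of the joint fit, at an adjusted p under 0.05, follow as differences on the log2 scale. Genes named because they were called at 7 weeks are favoured by this contrast, as said above. Against 4 weeks the one gene was Col18a1 (1.705). Against 6 months, Kif1b (1.812), Tnpo2 (2.124), Rel (2.39), Pim1 (2.969), Vat1 (2.338), Col4a1 (1.552), Itgb3 (1.94), Loxl2 (1.209), Eya4 (2.32) and Atp2b4 (2.192) were higher at 7 weeks. Lower at 7 weeks than at 6 months were Rogdi (-2.544), Tmem176b (-1.787), Chchd6 (-1.99), Aldoc (-3.235), Lhcgr (-2.893), Krt18 (-2.483), Krt8 (-1.426), Tspan8 (-4.066) and Entpd1 (-1.407).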

How the results depend on the processing

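Of the 96 called genes, 1 changed sign under an alternative: Hp, at 0.0207 on the log2 scale with the surface epithelium covariate. The 96 were chosen for large differences, so a kept sign is no measure of stability. The count of 96 became 563 with DESeq2, 493 with limma voom and library weights, 288 in the fit over 42 libraries, 61 with oviduct markers and 2 with surface epithelium markers as a covariate, which itself separates the genotypes. Leaving out 1 library gave 36 to 209 genes. Under the other alternatives it ran from 67 (thinned to the smallest library) to 129, with 106 for the ribosomal RNA locus as a covariate, and it was 42 without the shallow pair. The count of 1 gene for 7 minus 4 weeks became 63 with DESeq2 and ran from 0 to 1 without 1 library. The 1497 genes for 7 weeks minus 6 months became 932 with no filter, 2383 with DESeq2, 20 with the replicate block, and 263 to 2282 without 1 library. List medians moved as well. Those of the extracellular ATP, estrogen-responsive, interstitial matrix, steroidogenesis, keratin and glycolysis lists, among others, changed sign under an alternative. The cause of these changes was not tested.

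The sample numbers of the labels were not taken as pairs: the deviations of same-numbered libraries correlated at 0.422, 0.034, 0.339, 0.593 and -0.247 for numbers 1 to 5. With the replicate block 129 genes were called, 81 of them among the 96. Scaling left the share of higher genes between 48.96% and 61.54%, against 56.25% as fitted. Genes with few counts in WT 1, KO 1 and KO 2 are limited by depth, and a gene not called there may still differ.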

Other observations

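Some called genes outside the lists and the rule for naming, chosen here after their values were seen, act in lipid handling. Plin2, the coat protein of lipid droplets, was at 232, 276, 243, 231 and 204 CPM in WT 1 to WT 5 and at 95.5, 63.8, 74.9, 154 and 114 CPM in KO 1 to KO 5, lower without overlap (log2 fold change -1.23 ± 0.25, adjusted p = 0.0386). Its call ended without KO 1, KO 2, KO 3, KO 5, WT 1, WT 2, WT 3 or WT 4 (adjusted p = 0.0636 to 0.115). Slc25a17, a peroxisomal carrier of coenzyme A, was at 158, 174, 140.1, 149 and 145 CPM and 70.9, 60.4, 47.4, 85.3 and 92.9 CPM in the same order, again lower in every knockout library (log2 fold change -1.097 ± 0.23), and lost its call without KO 1, KO 2, KO 3, KO 5, WT 1, WT 2, WT 3, WT 4 or WT 5 (adjusted p = 0.0528 to 0.117). Osbp, which exchanges sterols between membranes, rose from 18.8 ± 4.40 to 50.8 ± 15.5 CPM, and the call ended without KO 2, KO 3, KO 5, WT 2, WT 3 or WT 4 (adjusted p = 0.0516 to 0.112). Prkaa2, the alpha 2 catalytic subunit of the energy sensor AMPK, rose from 1.29 ± 0.908 to 7.66 ± 2.59 CPM (log2 fold change 2.78 ± 0.51), but not without KO 1, KO 5, WT 2, WT 3 or WT 4 (adjusted p = 0.0622 to 0.112).

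Others act in signalling. Plcb4, a phospholipase C, was at 12.95, 19.05, 12.2, 14.5 and 11.6 CPM in WT 1 to WT 5 and at 34.1, 38.8, 33.2, 29.01 and 34.7 CPM in KO 1 to KO 5 (adjusted p = 0.037), with a call lost without KO 1, KO 2, KO 3, KO 5, WT 1, WT 3, WT 4 or WT 5 (adjusted p = 0.0555 to 0.118). Mras, a Ras-related GTPase, rose by 1.195 ± 0.24 on the log2 scale and lost its call without KO 2, KO 3, KO 5, WT 1, WT 2, WT 3, WT 4 or WT 5 (adjusted p = 0.0555 to 0.131). Mef2c, a transcription factor of muscle and nerve, rose by 2.24 ± 0.42 and was called at all 3 ages, with the 7 week call lost without KO 3, KO 5, WT 3, WT 4 or WT 5 (adjusted p = 0.0503 to 0.0871). Ramp2, which forms the adrenomedullin receptor with the calcitonin receptor-like receptor, fell from 129 ± 34.6 to 52.6 ± 16.9 CPM and lost its call without KO 1, KO 2, KO 3, KO 5, WT 1, WT 2, WT 3, WT 4 or WT 5 (adjusted p = 0.0509 to 0.114). Hp, the hemoglobin-binding haptoglobin, fell from 143 ± 85.3 to 37.98 ± 15.8 CPM with WT 2 the highest library, and lost its call without KO 1, KO 2, KO 3, KO 5, WT 1, WT 2, WT 3 or WT 4 (adjusted p = 0.0603 to 0.115).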
